A study of Mus musculus with 6 samples.

Results

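The genes described here are the molybdoenzymes and the enzymes that make their cofactor in newborn mouse calvaria, the skull roof. They were taken by symbol from the deposited gene table, where all 10 named genes (Aox1, Aox3, Aox4, Xdh, Suox, Mocos, Mocs1, Mocs2, Mocs3 and Gphn) were found among 23358 entries. The members were chosen by measured values, since the set was proposed with the cKO-against-WT differences of these libraries known. The differences given for these 10 genes are therefore descriptions and carry no test of their own. RNA-seq was made from calvaria of mice aged 2 to 3 days, in 3 libraries labelled wild type (WT, Ezh2_WT_Osx) and 3 labelled Ezh2 conditional knockout (cKO, Ezh2_cKO-Osx). Ezh2 encodes a histone H3 lysine methyltransferase of the Polycomb group. Osx, which stands in both group names, is the former symbol of the osteoblast gene Sp7, and the series title speaks of osteoblastic loss. The labels do not say which alleles the WT mice carry, what drives the recombination or which part of Ezh2 was removed. Each library is called by its group with the number its title carries. The dissected bones were briefly treated with collagenase and trypsin, frozen and homogenised, and the labels do not say that each came from a separate animal, so the spread between libraries may be partly technical.

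Molybdenum works in mammalian enzymes only when bound to a pterin, the molybdenum cofactor. Mocs1 turns GTP into a cyclic pterin, Mocs2 supplies molybdopterin synthase, which adds sulfur to it, Mocs3 recharges the sulfur carrier subunit of that enzyme, and Gphn (gephyrin) inserts the metal. Sulfite oxidase (Suox) uses this form, whereas xanthine oxidoreductase (Xdh) and the aldehyde oxidases (Aox) need a further sulfuration by Mocos. Suox detoxifies sulfite from sulfur amino acids, Xdh makes uric acid in purine breakdown, and aldehyde oxidases oxidise aldehydes, including retinaldehyde, and many heterocycles. Gephyrin also anchors inhibitory receptors at synapses.

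The 4 mouse aldehyde oxidase genes lie side by side on the plus strand of chromosome 1, in the order Aox1, Aox3, Aox4 and Aox2, the last of which is named Aox3l1 in the deposited table. The 250 bases before the RefSeq start of each are printed because 1 of these neighbours, Aox1, was well expressed and the other 3 were barely counted. The same window of Mocs2, the member with the highest deposited level per length, is set beside them. Sequences are from RefSeq on GRCm38.p6, the assembly behind mm10, run 5′ to 3′ on the strand of the gene, and have each CG dinucleotide in capitals.
Aox1 (chr1:58029719-58029968, plus strand): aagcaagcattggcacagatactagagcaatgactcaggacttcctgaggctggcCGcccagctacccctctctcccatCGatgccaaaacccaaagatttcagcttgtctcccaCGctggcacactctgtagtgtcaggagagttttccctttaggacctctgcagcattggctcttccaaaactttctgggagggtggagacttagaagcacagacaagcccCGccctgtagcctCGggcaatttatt
Aox3 (chr1:58112886-58113135, plus strand): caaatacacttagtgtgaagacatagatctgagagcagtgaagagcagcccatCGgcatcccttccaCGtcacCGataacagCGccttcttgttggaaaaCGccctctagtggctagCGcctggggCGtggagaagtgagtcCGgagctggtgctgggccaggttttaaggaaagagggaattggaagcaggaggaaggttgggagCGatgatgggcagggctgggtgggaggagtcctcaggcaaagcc
Aox4 (chr1:58210147-58210396, plus strand): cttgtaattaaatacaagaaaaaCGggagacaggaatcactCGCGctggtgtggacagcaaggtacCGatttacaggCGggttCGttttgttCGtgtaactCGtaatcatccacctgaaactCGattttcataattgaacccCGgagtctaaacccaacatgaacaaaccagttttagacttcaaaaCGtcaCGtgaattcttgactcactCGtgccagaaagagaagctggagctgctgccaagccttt
Aox2 (chr1:58278076-58278325, plus strand): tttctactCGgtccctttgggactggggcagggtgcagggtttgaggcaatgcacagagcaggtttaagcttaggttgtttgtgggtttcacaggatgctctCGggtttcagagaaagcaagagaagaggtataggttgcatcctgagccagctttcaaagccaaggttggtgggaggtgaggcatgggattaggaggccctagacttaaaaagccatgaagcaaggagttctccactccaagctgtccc
Mocs2 (chr13:114817987-114818236, plus strand): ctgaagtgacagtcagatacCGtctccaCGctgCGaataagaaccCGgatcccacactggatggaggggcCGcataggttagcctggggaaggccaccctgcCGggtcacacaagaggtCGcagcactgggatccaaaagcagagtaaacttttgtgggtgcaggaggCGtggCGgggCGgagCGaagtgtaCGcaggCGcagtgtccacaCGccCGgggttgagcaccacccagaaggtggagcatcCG

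The CG count of the Aox1 window lay within the range of the other 3 aldehyde oxidase windows. Aox1 held 5 CG dinucleotides, Aox2 held 2, Aox3 held 9 and Aox4 held 13, against a median of 6 over 32841 RefSeq promoter windows of the same length. A promoter window was found for 8 of the 10 members, and none for Xdh and Mocos. Suox and Gphn had the densest windows, with 35 and 34 CG dinucleotides, and 97.4% and 97% of all windows held as few or fewer. Mocs3 held 23, Mocs2 held 16 and Mocs1 held 11. CCAAT, searched on both strands, was found 2 times before Aox1, at 242 and 82 bases before the start on the opposite strand, and 1 time each before Aox3, Mocs1, Mocs3 and Suox, and 33.9% of all windows hold it. TATAAA, held by 12.4% of all windows, was found before none of the 8 members nor Aox2. TGACNNNGC, the core of the antioxidant response element, was found before Mocs2 alone of these genes, and 10.2% of all windows hold it. These are matches of letters and not sites of binding.

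The levels of the members, compared per length as RPKM values deposited by the authors, were above 1 RPKM in every library for 8 genes and far below it for Aox3 and Aox4. In WT the order was Mocs2 (9.65 ± 0.624 RPKM, mean ± SD, n = 3 for each group throughout), Mocs1 (4.59 ± 0.383), Gphn (3.08 ± 0.16), Aox1 (2.63 ± 0.214), Suox (2.37 ± 0.119), Mocs3 (1.57 ± 0.162), Xdh (1.49 ± 0.359) and Mocos (1.15 ± 0.144). Aox3 and Aox4 followed at 0.0752 ± 0.0177 and 0.0363 ± 0.00853 RPKM. Neighbours in this order whose WT libraries overlapped were Aox1 and Suox, Mocs3 and Xdh, and Xdh and Mocos. The RPKM of Mocs2 rests on a deposited length of 1889 bases. Its longest coding transcript has 4559 bases, so its place in the order depends on the length used. In cKO, Aox1 stood at 5.13 ± 0.467 RPKM, level with Mocs1 at 5.19 ± 0.346 and above every Gphn library (3.11 to 3.42). Other overlapping neighbours in cKO were Suox and Xdh, Mocs3 and Mocos, and Aox3 and Aox4.

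**Figure D1:**
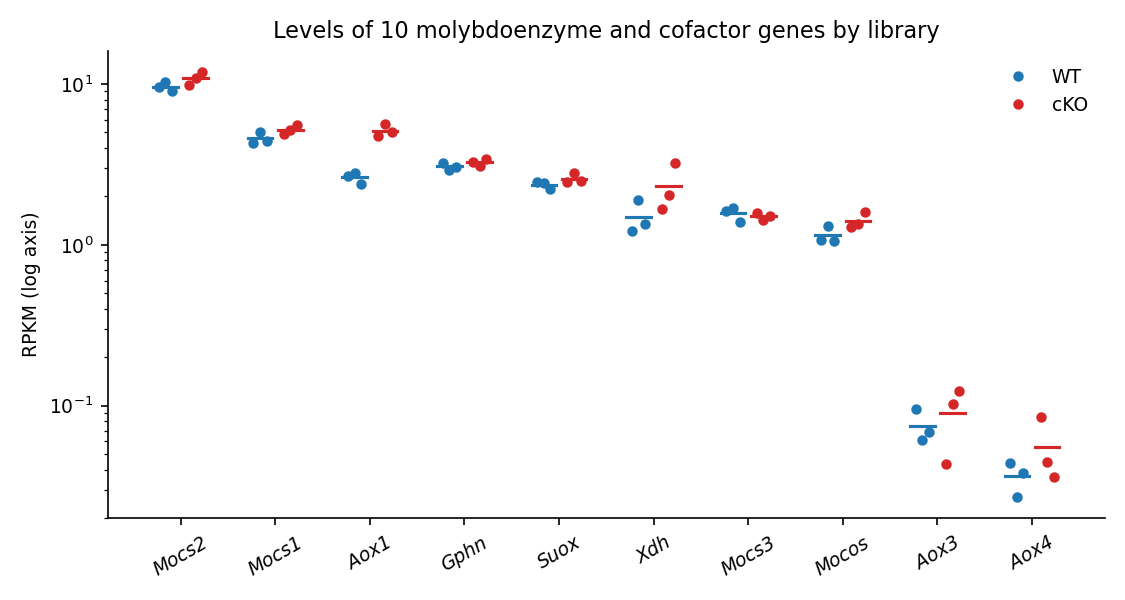
RPKM (log axis) of each of the 10 genes in each library, with WT in blue, cKO in red and the group mean as a line. Aox3 and Aox4 lie below 0.124 RPKM in every library, and Aox1 is the gene whose WT and cKO points are farthest apart.

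No 50-base stretch of any member's annotated transcripts was shared with another member or with Aox2, so exact reads of that length tell the aldehyde oxidases and Xdh apart. Stretches shared with other genes made up 0.612% of those of Aox1 and 9.6% of those of Xdh. Exons on the opposite strand overlapped 472 bases of Aox4 (Gm15759) and 147 bases of Gphn (Gm48226), and whether the counting used strand is not given, so these 2 values can include antisense reads.

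The gene counts summed to between 60449016 and 95439578 per library, every count was even, and each counted read pair is therefore taken to add 2. Ezh2 read 20.9 ± 0.68 CPM (counts scaled to a common library size with TMM factors) in WT and 19.9 ± 0.69 in cKO, and since the removed part is not given this does not check the labels. Of 16089 genes tested with edgeR's quasi-likelihood test, 12.4% passed a Benjamini-Hochberg adjusted p of 0.05, with 959 higher and 1038 lower in cKO. With upper-quartile scaling the share of higher genes among those called moved from 48% to 60.9%. Without cKO 8, WT 14, WT 27 or WT 29 the number higher was 291, 568, 558 and 398 and the number lower 295, 559, 611 and 385, and without cKO 10 the number higher was 592.

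All 10 members were abundant enough to be tested. Of these, 1 was called higher in cKO, 0 were called lower and 9 were not called, beside a background of 5.96% of all tested genes called higher and 6.45% called lower. The 3 libraries of one group lay wholly above the 3 of the other in 4 members, all with cKO above WT, where 34.6% of tested genes had groups that did not overlap in either direction and 17.2% had cKO above. Fitted differences were above 0 in 9 members. Their median log2 fold change, cKO over WT, was 0.20, beside 0.01 over all tested genes. Since the members were proposed with these differences known, neither value tests a shift of the set.

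Aox1 (chromosome 1, 58029969 to 58106410, 35 exons in its longest coding transcript) was the member that was called. Its WT level was 16.2 CPM in library 14, 15.8 in library 27 and 14.4 in library 29. Its cKO level was 29.2 CPM in library 8, 32.1 in library 10 and 28.7 in library 37. The groups were far from overlapping, with the lowest cKO library 1.77 times the highest WT library. The group means were 15.5 ± 0.957 and 30 ± 1.83 CPM, a fitted fold of 1.94 (log2 0.96 ± 0.08, standard error, 95% confidence interval 0.79 to 1.12). Behind these values stood between 551 and 1104 read pairs per library. The relative SD was 6.19% in WT and 6.09% in cKO.

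**Figure D2:**
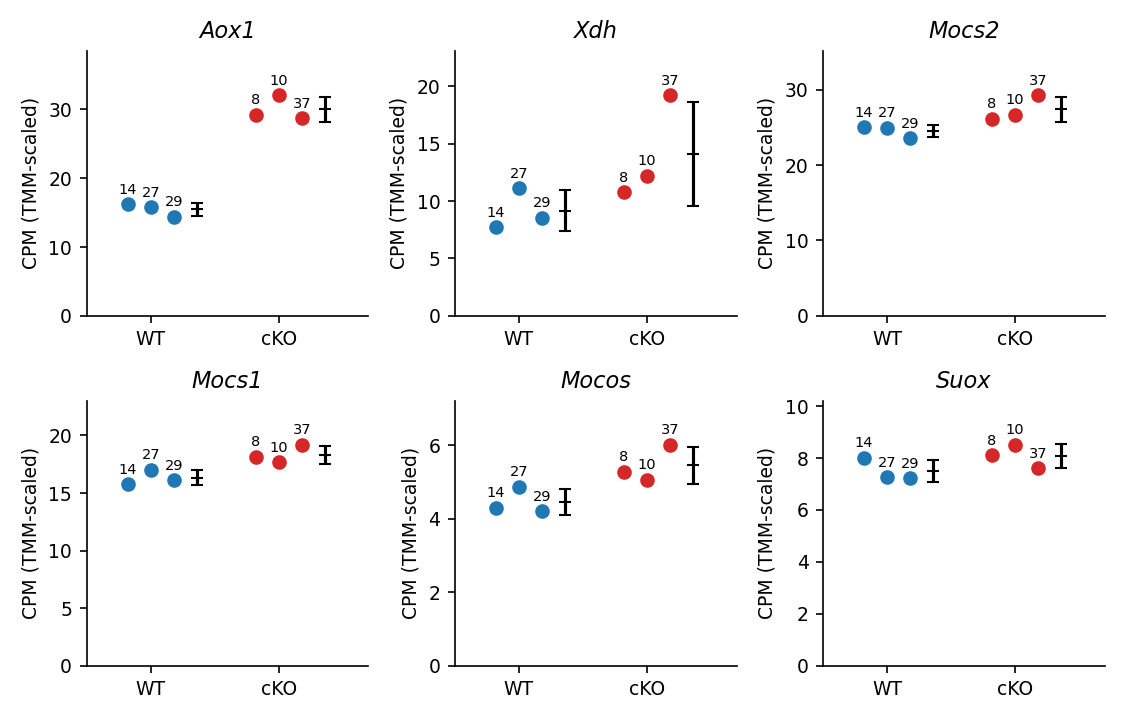
TMM-scaled CPM of 6 members in each library (points, labelled by library number, WT in blue, cKO in red). Black marks and bars give each mean with its SD (n = 3). The Aox1 groups are widely separated, Mocs2, Mocs1 and Mocos are separated by small gaps, and Xdh is raised chiefly in cKO 37.

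The other 2 aldehyde oxidase members were barely detected. Aox3 (58113136 to 58200452), known as a liver enzyme in mice, was counted in 8 to 27 read pairs per library and Aox4 (58210397 to 58268596), known from Harderian gland and skin, in 6 to 18. With libraries in the order 14, 27, 29 for WT and 8, 10, 37 for cKO, Aox3 read 0.574, 0.344 and 0.413 CPM against 0.267, 0.58 and 0.702 CPM, so the groups overlapped and cKO 8 was the lowest of all. Its log2 fold change was 0.23 ± 0.39, and without cKO 37 it was -0.07. Aox4 read 0.301, 0.172 and 0.261 CPM in WT and 0.601, 0.29 and 0.234 CPM in cKO, in the same library order. Its log2 fold change of 0.59 ± 0.45 (95% confidence interval -0.40 to 1.58) came down to 0.09 without cKO 8. The interval of Aox3 was -0.62 to 1.09, so that both intervals are wide and hold 0.

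Xdh (chromosome 17, 73883908 to 73950182, minus strand, 36 exons), the closest relative of the aldehyde oxidases, was the most variable of the 8 expressed members. In the same library order it read 7.71, 11.1 and 8.55 CPM with the WT label and 10.8, 12.2 and 19.2 CPM with the cKO label. WT 27 lay above cKO 8, so the groups overlapped, and cKO 37 stood well above the other 5 libraries. The relative SD was 19.6% in WT and 32.2% in cKO. The log2 fold change was 0.63 ± 0.25 (95% confidence interval 0.02 to 1.24, not adjusted for the number of genes), and it was not called. Without cKO 37 it was 0.33. DESeq2 called it (0.62), and neither limma voom nor any other alternative did.

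Suox (chromosome 10, 128669887 to 128673918, minus strand, 4 exons), the mitochondrial sulfite oxidase, did not separate the groups. Its levels were 8.01, 7.27 and 7.22 CPM in WT and 8.11, 8.51 and 7.62 CPM in cKO, again in the order of library numbers 14, 27, 29 and 8, 10, 37. The log2 fold change was 0.11 ± 0.10 (95% confidence interval -0.12 to 0.33).

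Of the cofactor genes, 3 had every cKO library above every WT library by a small gap, and none was called. Over all tested genes, 17.2% had cKO wholly above WT. Mocs1 (chromosome 17, 49428364 to 49455430), which carries out the first step, read 15.8, 17 and 16.1 CPM in WT and 18.2, 17.7 and 19.2 CPM in cKO (log2 0.17 ± 0.07, 95% confidence interval 0.01 to 0.33). Mocs2 (chromosome 13, 114818237 to 114829420), whose transcripts encode both subunits of molybdopterin synthase, read 25, 25 and 23.6 CPM in WT and 26.2, 26.7 and 29.3 CPM in cKO (0.16 ± 0.07, 0.01 to 0.31). Mocos (chromosome 18, 24653691 to 24701556), the sulfurase of Xdh and the aldehyde oxidases, read 4.29, 4.87 and 4.2 CPM in WT and 5.27, 5.06 and 6.01 CPM in cKO (0.29 ± 0.13, 0.02 to 0.57). The 3 intervals are not adjusted for the number of genes. From the same edgeR test, the adjusted p of Mocs1, Mocs2 and Mocos was 0.149, 0.141 and 0.15. In these 3 genes the lowest cKO library was 1.04, 1.05 and 1.04 times the highest WT library for Mocs1, Mocs2 and Mocos. Over the 12 alternatives their log2 fold changes went as low as 0.13, 0.11 and 0.21. In each of them cKO 37 was the highest library, as it was for Xdh and Aox3. The same held outside the members for Mosc2, Gda and Nfe2l2, and its share over all tested genes was not counted.

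Mocs3 (chromosome 2, 168230622 to 168232303), a gene of 1 exon, read 3.8, 3.64 and 3.2 CPM in WT and 3.74, 3.13 and 3.3 CPM in cKO, and was the 1 member with a fitted difference below 0 (-0.06 ± 0.14, 95% confidence interval -0.38 to 0.25). Gphn (chromosome 12, 78226655 to 78684769, 24 exons) read 15.3, 12.8 and 14.2 CPM in WT and 15.7, 13.7 and 15.2 CPM in cKO (0.08 ± 0.09, -0.12 to 0.28). Both genes had overlapping groups.

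**Figure D3:**
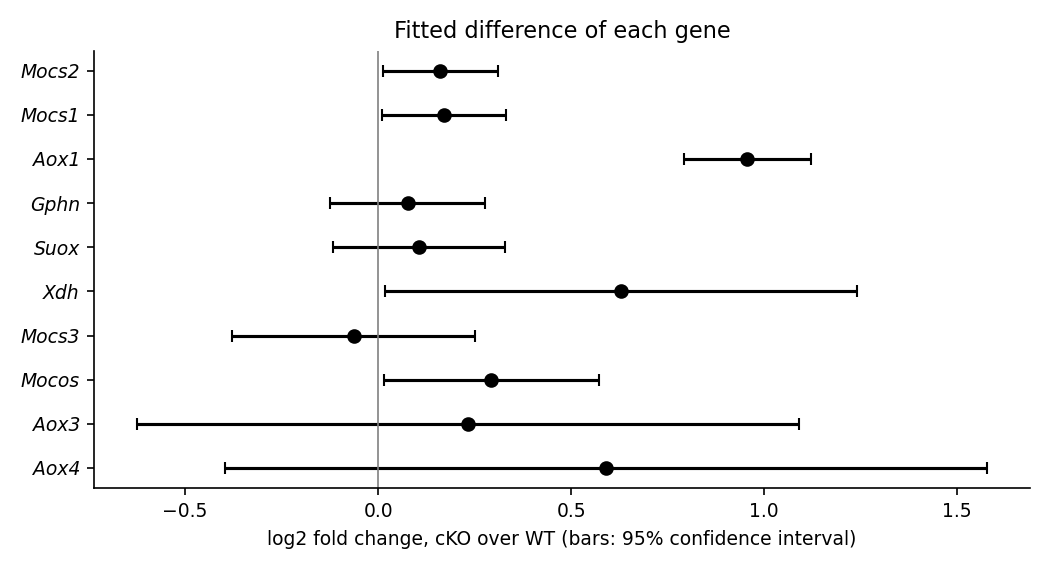
Fitted log2 fold change of each member, cKO over WT, with its 95% confidence interval (bars, not adjusted for the number of genes). Aox1 lies at 0.96 with a narrow interval, and the intervals of Aox3 and Aox4 are the widest.

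The 9 other genes within 250 kb of the aldehyde oxidase span were all tested, and 1 was called. Of all tested genes, 12.4% were called. Clk1, a kinase of splicing factors that starts 306 kb beyond the end of Aox1, rose from 104 ± 6.67 to 143 ± 8.18 CPM (log2 0.45 ± 0.07, adjusted p = 0.00381), and it passed under every alternative run. Sgol2, a shugoshin that protects centromeric cohesion, ends 3.69 kb before Aox1 and read 10.2 ± 1.44 CPM in WT and 10.8 ± 1.08 CPM in cKO (log2 0.09 ± 0.12, adjusted p = 0.678). Its value without WT 14 was -0.03. Aox3l1 (Aox2) read 0.238 ± 0.0914 and 0.266 ± 0.0506 CPM (log2 0.15 ± 0.43, adjusted p = 0.851), and -0.12 without WT 14. Kctd18 (log2 0.26 ± 0.08, adjusted p = 0.0639) and Nif3l1 (-0.26 ± 0.09, adjusted p = 0.0707) lay closest to the threshold, and Kctd18 passed it with upper-quartile scaling (adjusted p = 0.0489) and without cKO 37 (0.0402). Bzw1 (-0.14), Ppil3 (-0.10), Orc2 (-0.06) and Spats2l (-0.05) had smaller log2 fold changes and adjusted p of 0.163, 0.516, 0.643 and 0.688. Of the 12 genes in the window, Aox1 had the largest fitted difference. The members, Aox1 among them, were chosen with these differences known, so this order carries no test.

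**Figure D4:**
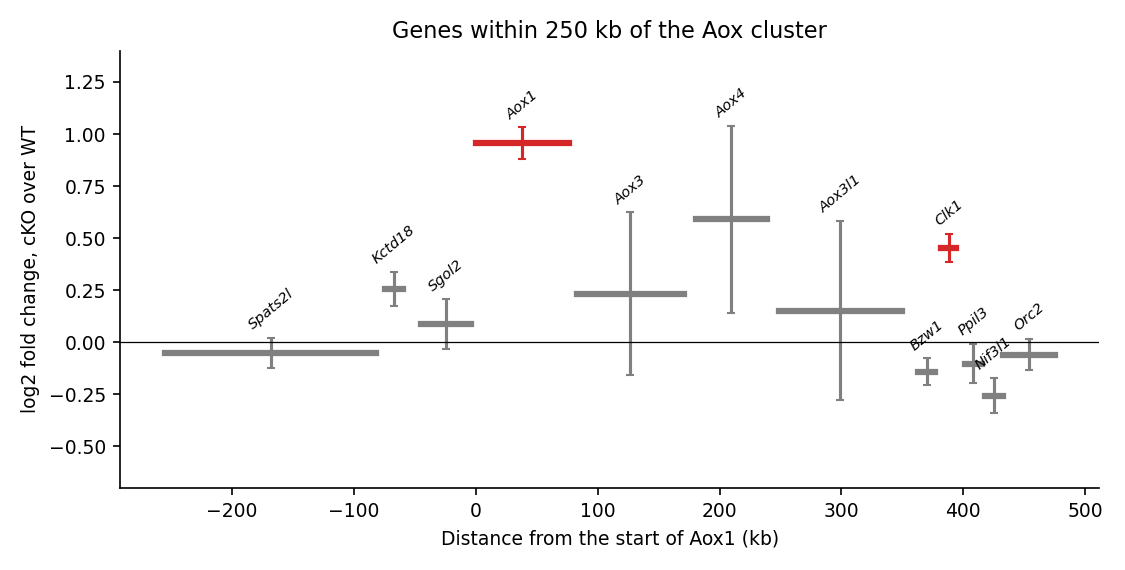
Log2 fold change, cKO over WT, of the 12 genes around the aldehyde oxidase cluster against distance from the start of Aox1 in kb (horizontal bars span each gene, vertical bars are standard errors, red marks genes called higher). Aox1 and Clk1 are the 2 called genes, and the adjacent Sgol2 and Aox3 were not called.

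The 5 tested genes whose log2 CPM correlated best with Aox1 over the 6 libraries were taken as the most alike in pattern. They were Calhm2, Ezh1, Unkl, Neb and Zfp811, with Pearson's r of 0.997, 0.997, 0.996, 0.995 and 0.995. These are the extremes of 16089 genes over 6 points that share libraries and group difference, and they are given as a description. Ezh1, the paralogue of Ezh2, rose by a log2 fold change of 0.53 ± 0.06 (adjusted p = 0.00154), Unkl by 0.33 ± 0.06 (0.00701), the muscle protein gene Neb by 1.22 ± 0.21 (0.00701) and the zinc finger gene Zfp811 by 0.72 ± 0.13 (0.00713). Calhm2 was at 0.27 ± 0.08 (adjusted p = 0.0572), and DESeq2 (0.0429) and upper-quartile scaling (0.0421) brought it past the threshold. For Mocs2, the cofactor gene with the highest RPKM, the 5 were Mosc2, AA465934, Rpl23, Aimp1 and Larp6, with r of 0.999, 0.993, 0.992, 0.988 and 0.985. Mosc2 (now Mtarc2) is itself a molybdenum enzyme. Of these 5, Larp6 alone passed (0.29 ± 0.08, adjusted p = 0.0427), and it was lost without any 1 of the 6 libraries (adjusted p = 0.0663 to 0.151).

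The remaining mouse molybdenum enzymes are the amidoxime reducing components Mosc1 (Mtarc1) and Mosc2 (Mtarc2), which take electrons from cytochrome b5. Mosc2 read 40, 39.9 and 38.2 CPM with the WT label and 41.1, 41.9 and 45.2 CPM with the cKO label (log2 0.12 ± 0.06, adjusted p = 0.225). Mosc1 was rare, at 0.285 ± 0.0732 against 0.556 ± 0.0822 CPM (log2 0.96 ± 0.34, adjusted p = 0.0878). Neither passed, and in both cKO lay wholly above WT, as it did in 17.2% of all tested genes. With cytochrome partners and the molybdate transporter, this list of 8 tested genes had 0 higher and 2 lower (median log2 fold change -0.08). The called share was 25%, beside 12.4% of all tested genes. Mfsd5, that transporter, fell from 37 ± 0.31 to 28.9 ± 1.71 CPM (-0.36 ± 0.06, adjusted p = 0.00701) and Cycs, cytochrome c, fell by 0.37 ± 0.08 on the log2 scale (0.0137).

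Another list holds genes that supply iron-sulfur clusters, which Mocs1, Xdh and the aldehyde oxidases contain, and partners of Mocs3. Of 23 tested, 0 rose and 1 fell, 4.35% beside 12.4% of all tested genes (median -0.08, beside 0.01 over all). Ctu2, a tRNA thiolation enzyme that uses the sulfur carrier Urm1 charged by Mocs3, fell by 0.34 ± 0.08 (adjusted p = 0.0182). It was lost without cKO 8, cKO 10 or WT 29 (0.0633, 0.0543 and 0.0737). Of 21 genes of sulfur amino acid breakdown, the source of the substrate of Suox, 0 rose and 1 fell, or 4.76% (median -0.03). That was Mat2a, which makes S-adenosylmethionine (-0.31 ± 0.07, adjusted p = 0.0151, lost without cKO 8, WT 14 or WT 29 at 0.0647, 0.0534 and 0.0705).

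Of 22 purine breakdown and salvage genes, the pathway of Xdh, 2 rose and 2 fell, 18.2% beside 12.4% of all tested genes (median -0.00365). Abcg2, a urate exporter, rose from 25.9 ± 0.275 to 32.1 ± 1.28 CPM (log2 0.31 ± 0.06, adjusted p = 0.00984). Gda, guanine deaminase, rose by 0.48 ± 0.13 (adjusted p = 0.0339), and the IMP dehydrogenases Impdh1 and Impdh2, of guanine nucleotide synthesis, fell by 0.38 ± 0.08 and 0.22 ± 0.06 (0.0185 and 0.0367). Impdh1 was lost without WT 29 (0.0789). Gda kept its call when WT 29 was left out and lost it for each other library (0.0632 to 0.09). Impdh2 kept it without cKO 37 and lost it for each other library (0.0618 to 0.127) and with upper-quartile scaling (0.0564).

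Aldehyde and retinoid oxidation, the reactions closest to those of Aox1, held 36 tested genes, of which 4 rose and 2 fell (median 0.01). The called share was 16.7%, beside 12.4% of all tested genes. Aldh3a1, an aldehyde dehydrogenase, read 2.51, 2.38 and 2 CPM in WT and 4.71, 3.61 and 5.07 CPM in cKO, with no overlap (log2 0.96 ± 0.17, adjusted p = 0.00701). The retinoic acid forming Aldh1a3 rose by 0.75 ± 0.14 (0.00875), and Cyp26a1, which degrades retinoic acid, by 0.80 ± 0.20 (0.0287). Aldh18a1, of proline synthesis, fell by 0.39 ± 0.07 (0.00776). Adh1, an alcohol dehydrogenase, rose by 1.12 ± 0.29 (adjusted p = 0.0308) and Aldh4a1, of proline breakdown, fell by 0.53 ± 0.14 (0.041), and both were named after their values were seen. Aldh1a3 was lost without cKO 8 (0.0512), Cyp26a1 without any single library other than WT 14 (0.0611 to 0.0819), Adh1 without any but WT 14 and WT 27 (0.0533 to 0.0794), and Aldh4a1 without any but cKO 10 and cKO 37 (0.0816 to 0.141). Aldh1a1 (log2 0.27 ± 0.29, adjusted p = 0.583) and Aldh1a2 (-0.21 ± 0.18, adjusted p = 0.5), which also make retinoic acid, did not pass, and were also named after their values were seen. The same holds for the other Cyp26 genes. Cyp26b1 (45.5 and 42.9 CPM, log2 -0.08 ± 0.16, adjusted p = 0.777) was far more abundant than Cyp26a1 (2.29 and 3.98 CPM). Cyp26c1 was rarer (0.272 and 0.534 CPM, log2 0.97 ± 0.32, adjusted p = 0.0668).

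Among 30 Nrf2 target and oxidant defence genes, 2 rose and 3 fell, 16.7% beside 12.4% of all tested genes (median -0.07). Nfe2l2, which encodes Nrf2 itself, read 27.9, 24.3 and 24.5 CPM in WT and 33.4, 39.8 and 41.3 CPM in cKO (log2 0.58 ± 0.09, adjusted p = 0.00417). Gpx3, a secreted glutathione peroxidase, rose by 0.39 ± 0.06 (0.00484), while Sod2 fell by 0.31 ± 0.07 (0.0156), Txnrd1 by 0.24 ± 0.06 (0.0229) and Taldo1, outside the naming rule, by 0.22 ± 0.06 (0.0454). The classical targets Nqo1 (-0.13 ± 0.25, adjusted p = 0.771), Gclm (-0.02 ± 0.07, 0.895) and Hmox1 (-0.05 ± 0.08, 0.704) did not pass and were named after their values were seen. Sod2 was lost without cKO 8 or WT 29 (0.078 and 0.0536), Txnrd1 without cKO 8, WT 14 or WT 29 (0.107, 0.0589 and 0.0917), and Taldo1 without any single library other than cKO 37 (0.0562 to 0.17). Taldo1 also missed the threshold under limma voom (0.0521) and upper-quartile scaling (0.067).

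Of 16 tested gephyrin partners and inhibitory receptors, 1 rose and 4 fell, 31.2% beside 12.4% of all tested genes (median -0.000947). The members that fell are general cytoskeletal proteins. They were the actin regulators Pfn1 (-0.39 ± 0.07, adjusted p = 0.0062) and Vasp (-0.39 ± 0.07, 0.00713) and the dynein light chains Dynll1 (-0.50 ± 0.09, 0.00745) and Dynll2 (-0.28 ± 0.07, 0.0282), the last named after its value was seen and lost without cKO 8, WT 14, WT 27 or WT 29 (0.106, 0.0611, 0.0916 and 0.055). Slc6a9, a glycine transporter, rose by 0.40 ± 0.07 (0.00818). Over all 7 lists together, 9 of 155 tested genes rose and 15 fell, 15.5% in all beside 12.4% of all tested genes. Without cKO 8 these numbers were 5 and 7, and the number that fell was 9 without WT 14, 6 without WT 29 and 23 without cKO 37.

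**Figure D5:**
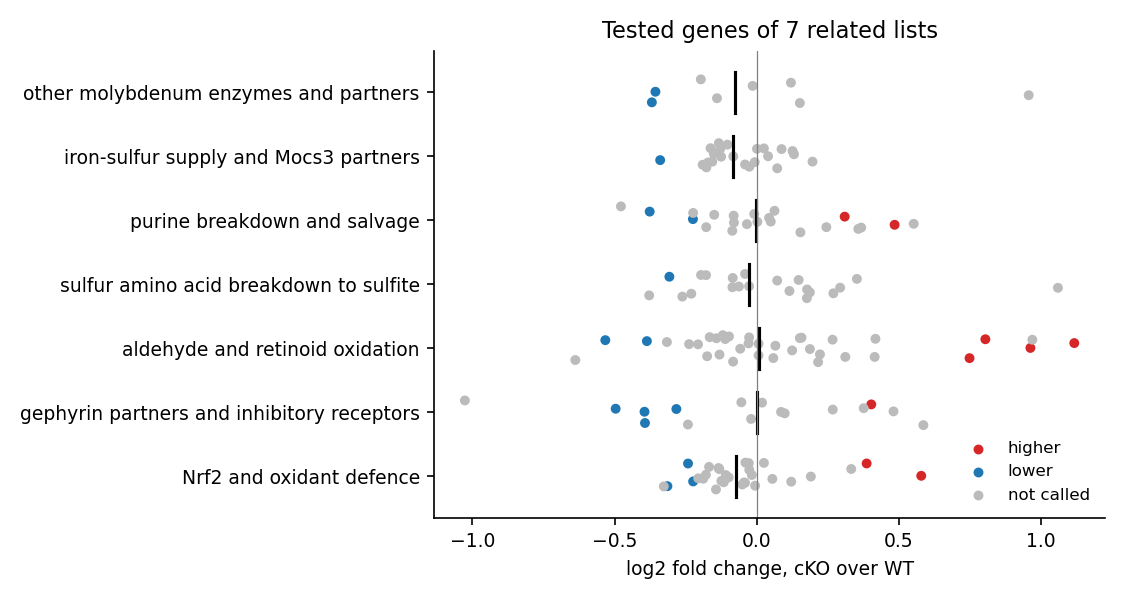
Log2 fold change, cKO over WT, of each tested gene (point) in 7 related lists, coloured red when called higher, blue when called lower and grey when not called, with the list median as a black line. The list medians lie between -0.08 and 0.01, and the 4 called aldehyde and retinoid genes above 0.7 stand at the right. The uncalled Gadl1 (1.06), Cyp26c1 (0.97) and Mosc1 (0.96), of 3 different lists, lie there too.

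Markers of cell types that whole calvaria can hold were read beside these values, and single markers are named outside the naming rule, after their values were seen. In bulk bone, fewer cells of a type and less RNA per cell cannot be told apart. Of 10 osteoblast markers 0 rose and 1 fell (Sp7), and their summed level was 132162 to 179534 CPM in WT and 98631 to 134477 CPM in cKO, an overlap. That sum is nearly all Col1a1 (81440 CPM in WT and 57138 in cKO) and Col1a2 (61619 and 51768), so it says little of the rest, such as Sp7 (224 and 173) and Ibsp (1073 and 1363, not called). The 10 macrophage and osteoclast markers summed to 2254 to 2941 CPM in WT and 1853 to 2068 CPM in cKO, with 0 higher, 2 lower (Csf1r and Acp5) and no overlap of the sums. Most of that sum is Ctsk (1446 and 1215 CPM, not called) and Acp5 (605 and 411), so it says little of the rest. Emr1 (25.1 and 21), Mrc1 (60.7 and 54.5), C1qa (24 and 24) and C1qb (25.6 and 26.6) overlapped and were not called. Cd68 (72 and 51.7), Ocstamp (18.4 and 11.7) and Dcstamp (20.7 and 13.5) lay wholly lower in cKO and were not called. The sum of the 10 skeletal muscle markers was also lower in every cKO library (26.5 to 28.7 against 22 to 22.5 CPM), but most of it is Ttn (16.5 against 9.31 CPM), the 1 of 6 tested that was called lower. Des was at 6.87 against 8.23 CPM with every cKO library above WT, and the median log2 fold change of the 6 was 0.10. Sums overlapped for adipocytes (62.8 to 76.3 against 68.7 to 78.9 CPM, 0 of 5 tested called), endothelium (685 to 782 against 718 to 865, 1 of 10 lower), fibroblasts and dura (14357 to 15219 against 13984 to 16857, most of it Col3a1, 1 of 10 higher and 1 lower), neurons and glia (29.1 to 44.2 against 25.7 to 33.3, 1 of 8 lower), erythroid and marrow cells (6.01 to 8.94 against 5.8 to 10.2, 0 of 8 called) and keratinocytes (5.03 to 6.64 against 4.09 to 6.06, 0 of 4 called). Lep, Ivl (keratinocyte) and Olig2 (glia) were at 0 in every library, and the adipocyte marker Adipoq reached no more than 2 counts. The part of these cell types in the Aox1 and Xdh values was not tested.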

How the data were processed

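RNA-seq libraries of calvaria (3 WT and 3 cKO, grouped by title) were used once each. Per the submitters' processing notes, the authors used bcl2fastq, aligned reads to mm10 with TopHat2 2.0.6 and counted genes with HTSeq. The settings, the annotation and whether strand was used are not stated there. The deposited counts per gene, summing to 60449016 to 95439578 per library, entered all tests. RPKM, as deposited by the authors, followed from the counts and the coding length in the file and served only to compare levels between genes. In the file, 69 of 23358 entries share an identifier and were kept apart by position.

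Counts were fitted across all genes in R 4.3.3 with edgeR 4.0.16 (filterByExpr with a minimum count of 10, TMM scaling, robust quasi-likelihood F test, cKO against WT), and p-values were adjusted by Benjamini-Hochberg over 16089 genes with a threshold of 0.05. The same fit gave the standard errors and 95% intervals. The alternatives were scaling by RLE or by the upper quartile, omission of the low-count filter, DESeq2 1.42.0, limma 3.58.1 voom, counts divided by 2 and omission of each library. The fits were tested on simulated data. Genes were named by a rule: all members, Ezh2, up to 4 called genes with the smallest p of each of 7 lists, the other molybdenum enzymes, genes within 250 kb of the aldehyde oxidase span, and the 5 genes most correlated with Aox1 and with Mocs2. Other named genes are said to be outside it. Members and lists were chosen with earlier results of these data known, so the called shares of the lists are descriptions and carry no test. Older symbols were matched through the RefSeq table.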

Additional observations from a re-analysis of the deposited data

How the results depend on the processing

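Aox1 was called higher under all 12 alternatives (log2 fold change 0.90 to 0.99). The other 9 members were not called under any of them, except Xdh with DESeq2, which made 2 members called higher with that tool. DESeq2 gave no adjusted p for Aox3 and Aox4. The log2 fold change reversed for Aox3 without cKO 37 (-0.065, over the libraries left out -0.065 to 0.53), and without WT 14 for Aox3l1 (-0.12, range -0.12 to 0.38) and Sgol2 (-0.026, range -0.026 to 0.16), none of them called. With 1 library left out, genes called higher ranged from 291 to 932, genes called lower from 295 to 1053, members called higher stayed at 1, and genes of the 7 lists called higher ranged from 5 to 9 and lower from 6 to 23. The causes were not tested. Aox3 and Aox4 were counted in at most 27 and 18 read pairs per library, which limits their precision. No paired analysis was made, because the labels name no pairing and the groups share no label numbers. Whether any libraries were paired is not known.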
